A study of Mus musculus with 24 samples.

Results

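The 7 genes described here belong to the sodium pump and its regulators, and were followed across oligodendrocyte (OL) and total spinal cord RNA after spinal cord injury (SCI): the FXYD genes Fxyd1, Fxyd3, Fxyd5, Fxyd6 and Fxyd7, and the pump beta subunit genes Atp1b1 and Atp1b3. They are 7 of 21965 genes in the count table and all 7 were among the 17167 genes tested. They were named by gene family, and Fxyd7 was chosen by its measured rise in OL RNA at every time point after SCI. Its OL values are therefore given as a description, with no test, and the counts of called genes in OL comparisons cover the other 6 genes. In an order of all genes that rose in OL RNA, by unadjusted p, Fxyd7 was number 3 at 2 days post injury (dpi 2), number 3 at dpi 10 and number 1 at dpi 42. Its neighbours in that order were Spp1 and Flot1, then Lyz2 and Tyrobp, then Lyz2. A high rank follows from the way the gene was chosen, so it describes that choice and is no support for the rise.

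The sodium pump, Na,K-ATPase, exports sodium and imports potassium at the cost of ATP and so maintains the ion gradients that neurons and glia use for signalling and transport. Its alpha subunit carries out the transport, its beta subunit brings the alpha subunit to the plasma membrane, and small single-span FXYD proteins bind the assembled pump and tune its affinity and rate. Tissues and cell types use different sets of these subunits, and FXYD proteins are commonly described as the tissue-specific regulators of the pump.

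All mice were OL-Ribotag mice, in which a tamoxifen-inducible Cre expressed in OLs adds a hemagglutinin (HA) tag to the ribosomal protein RPL22 (rpl22HA). The Cre driver is also active in Schwann cells, so tagged ribosomes need not come from OLs alone. The labels give female mice of 10 to 12 weeks, which is not the age in the study's methods. By those methods the naive and dpi 42 cords were taken on 1 day, so naive mice match dpi 42 mice, and not those of dpi 2 and dpi 10, in age and in time since tamoxifen, and in the changes at dpi 2 and dpi 10 this cannot be told apart from SCI. The 4 conditions were naive cord without SCI and cord at dpi 2, dpi 10 and dpi 42 after a 50 kdyn contusion at the thoracic level, and the naive mice carried the same alleles. Cords of 2 mice were pooled, with 3 pools per condition. Every pool yielded 1 OL library from HA-precipitated ribosomes and 1 total RNA library from the input, or 24 libraries in 8 groups of 3. Precipitated RNA reports ribosome-associated transcripts, and in such bulk samples fewer cells of a type and less RNA per cell cannot be told apart.

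The OL libraries held 29075211 to 32987841 counts and the total RNA libraries 25840127 to 29050061. The title of 2 dpi 42 libraries names another kind of RNA than their description and column name do, and they were grouped by the latter. Both libraries of dpi 2 pool 2 carried reads of 4 genes of the Y chromosome (2414 and 2604 counts) against 0 to 13 in the other 22 libraries, although the labels give female mice. The summed OL markers (8 of 8 detected, with Mbp and Mog) were 96315 to 157866 normalised counts (CPM, counts scaled per megaread of library size) in OL libraries and 19318 to 27881 CPM in total RNA. Summed astrocyte markers (6 of 6 detected, with Gfap and Aqp4) exceeded 5000 CPM in 5 OL libraries, namely naive 3 (8210 CPM), dpi 2 library 3 (8591 CPM), dpi 10 library 2 (6618 CPM) and dpi 42 libraries 1 and 2 (13322 and 11166 CPM). They were 1650 to 3830 CPM in the other 7. Summed Schwann cell markers (6 of 6 detected, with Prx and Egr2) were 7.69 and 9.52 CPM in naive OL libraries 1 and 2, 708 CPM in naive OL library 3 and 236 to 1561 CPM in the 9 OL libraries after SCI. The genes Pmp2 and Egr2 of that list were at 0 in at least 1 OL library. Where leaving out these libraries ends a call or moves a called value of the 7 genes by over 1.5 times, the value without them is given.

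The FXYD genes of this set lie on 2 chromosomes (GRCm38 coordinates of the GENCODE M21 annotation). Fxyd5 (ENSMUSG00000009687, chr7:31032722-31042481), Fxyd7 (ENSMUSG00000036578, chr7:31042513-31051467), Fxyd1 (ENSMUSG00000036570, chr7:31051678-31057199) and Fxyd3 (ENSMUSG00000057092, chr7:31068172-31076704) are all on the minus strand, with 31 bases between Fxyd5 and Fxyd7 and 210 between Fxyd7 and Fxyd1. Fxyd6 (ENSMUSG00000066705) is on the plus strand at chr9:45370185-45396159. Atp1b1 (ENSMUSG00000026576) is at chr1:164437109-164458355 and Atp1b3 (ENSMUSG00000032412) at chr9:96332655-96364442, both on the minus strand. Lgi4 lies between Fxyd1 and Fxyd3 on the plus strand and overlaps Fxyd3 by 2764 bases. The strand setting of the counting is not given in the sources used here, so reads of Fxyd3 and Lgi4 in that overlap cannot be told apart.

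The 250 bases before the RefSeq start site (GRCm38.p6) are printed for 5 of the 7 genes, because these genes fall on different sides of the comparisons below: Fxyd1 and Fxyd3 rose in both kinds of RNA, Fxyd6 was called higher in OL RNA and not in total RNA, and Atp1b1 and Atp1b3 were depleted and enriched in OL RNA. For Atp1b3, which has 2 RefSeq stretches, the one next to the annotated gene start is shown. No entry was matched for Fxyd7, and the stretch before Fxyd5 (chr7:31042332-31042581) shares 219 bases with annotated exons of Fxyd5 and Fxyd7 and is not printed. Each sequence runs 5′ to 3′ on the strand of its gene, and capitals mark matches on either strand to 5 short motifs: the GC box GGGCGG, the CCAAT box, TATAAA, the E box CACGTG, and TGACTCA or TGAGTCA (AP-1).
Fxyd1, chr7:31054854-31055103, minus strand: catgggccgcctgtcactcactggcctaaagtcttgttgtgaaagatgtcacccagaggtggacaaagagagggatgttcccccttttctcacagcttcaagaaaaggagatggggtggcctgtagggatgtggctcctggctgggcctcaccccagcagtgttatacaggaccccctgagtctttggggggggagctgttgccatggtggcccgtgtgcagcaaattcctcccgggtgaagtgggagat
Fxyd3, chr7:31076698-31076947, minus strand: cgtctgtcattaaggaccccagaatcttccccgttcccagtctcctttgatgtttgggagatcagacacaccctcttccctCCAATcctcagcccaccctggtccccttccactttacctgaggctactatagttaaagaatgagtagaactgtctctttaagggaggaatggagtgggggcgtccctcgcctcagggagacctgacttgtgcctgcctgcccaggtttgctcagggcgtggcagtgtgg
Fxyd6, chr9:45369935-45370184, plus strand: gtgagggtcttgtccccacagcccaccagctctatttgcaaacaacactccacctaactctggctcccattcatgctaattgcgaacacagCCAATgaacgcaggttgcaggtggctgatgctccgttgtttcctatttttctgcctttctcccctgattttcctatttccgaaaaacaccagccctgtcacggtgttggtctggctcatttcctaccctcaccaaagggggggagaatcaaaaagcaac
Atp1b1, chr1:164458356-164458605, minus strand: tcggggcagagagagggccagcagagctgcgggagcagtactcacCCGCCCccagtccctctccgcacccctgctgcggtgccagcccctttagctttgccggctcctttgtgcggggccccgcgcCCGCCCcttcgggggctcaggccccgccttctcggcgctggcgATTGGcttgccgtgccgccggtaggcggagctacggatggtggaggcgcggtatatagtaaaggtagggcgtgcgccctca
Atp1b3, chr9:96364432-96364681, minus strand: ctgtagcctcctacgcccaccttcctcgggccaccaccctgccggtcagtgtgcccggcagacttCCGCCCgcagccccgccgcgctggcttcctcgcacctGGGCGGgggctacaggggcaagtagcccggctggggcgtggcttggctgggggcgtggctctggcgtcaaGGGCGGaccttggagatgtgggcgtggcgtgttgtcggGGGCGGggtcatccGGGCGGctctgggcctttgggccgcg

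The stretches of the beta subunit genes were richer in G and C (70.4% for Atp1b1 and 73.6% for Atp1b3) than those of Fxyd1 (57.2%), Fxyd3 (55.2%) and Fxyd6 (50.4%). GGGCGG matched 2 times before Atp1b1 and 5 times before Atp1b3, and 33% of 32536 distinct RefSeq stretches of this length hold it. CCAAT matched 1 time each before Fxyd3, Fxyd6 and Atp1b1, against 33.8% of all stretches. The stretch of Fxyd1, which falls in an intron of longer annotated Fxyd1 transcripts, held none of the 5 motifs. TATAAA (12.3% of all stretches), CACGTG (6.04%) and the AP-1 motif (4.45%) had no match in the 5 printed windows, which says only that these letters are not there. The Atp1b3 stretch that is not printed (chr9:96363716-96363965) held 0 matches to GGGCGG and 1 to CACGTG, so the motifs of this gene depend on the start site used.

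**Figure D1:**
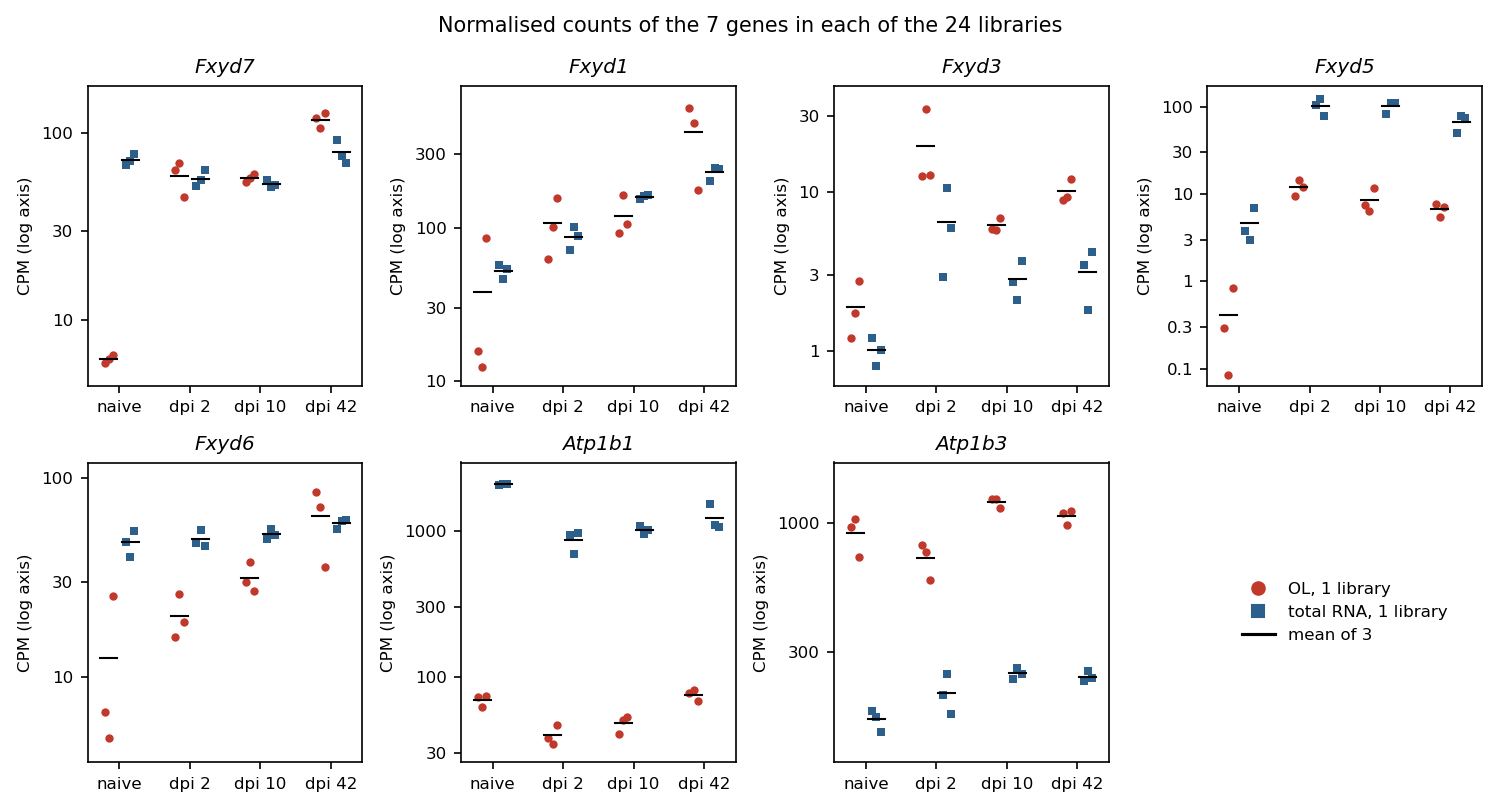
Normalised counts (CPM, log axis) of the 7 genes in the 24 libraries by condition, with OL libraries as red circles, total RNA libraries as blue squares and the mean of 3 as a black bar. Fxyd7 in OL RNA rises from about 6.16 CPM in naive cord to 118 CPM at dpi 42 while its total RNA stays between 51.2 and 91.4 CPM, and Atp1b1 and Atp1b3 sit on opposite sides of total RNA at all 4 conditions.

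The question of the first comparison was which genes are more abundant in OL than in total RNA, called OL enrichment. Levels are CPM after TMM scaling. Log2 changes are given with their standard error (SE), and q is the p of edgeR's quasi-likelihood test after Benjamini-Hochberg adjustment over the 17167 genes. A gene was called at q under 0.05. Of the 6 genes other than Fxyd7, 1 was enriched and 3 were depleted in naive OL RNA, against 24.9% and 30.5% of all genes tested. At dpi 2, 2 were enriched and 3 depleted (24.8% and 28.8% of all genes), at dpi 10, 2 and 2 (25.2% and 28.8%), and at dpi 42, 2 and 2 (24.9% and 28.9%). The second comparison was OL RNA after SCI against naive OL RNA. Here 3 of the 6 rose and 1 fell at dpi 2, against 18.4% and 20% of all genes. At dpi 10, 5 rose and 1 fell (9.62% and 8.59% of all genes), and at dpi 42, 4 rose (16.2%). The median log2 change of the 6 genes was 1.10, 1.50 and 2.38 at dpi 2, 10 and 42, and that of all genes was 0 each time.

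In total RNA against naive total RNA, a comparison that did not choose Fxyd7, 3 of the 7 genes rose and 1 fell at dpi 2 (16.4% and 20.8% of all genes), 4 rose and 2 fell at dpi 10 (13.9% and 18.2%), and 4 rose and 1 fell at dpi 42 (10.4% and 12.1%). The median change of the 7 genes was 0.36, 0.62 and 0.58, against -0.10, -0.10 and -0.08 over all genes. Differential OL enrichment, the OL enrichment after SCI minus that in naive cord, asks whether OL and total RNA changed alike. Of the 6 genes, 1 was called lower at dpi 2 (6.03% of all genes) and 2 higher at dpi 42 (4.37%). At dpi 10 edgeR called 0 of 6, against 4.57% of all genes higher and 3.09% lower, with 2 of 6 at an unadjusted p under 0.05 and 0 called by DESeq2. These comparisons share control libraries, so the values of each are set side by side. Counts at dpi 10 and in differential OL enrichment moved with single libraries, which are named with the genes concerned. A library outside the groups compared enters an estimate through the shared scaling, spread and gene filter, not through a group mean. Replicates are pools of separate mice, and p-values measure the spread between the libraries of a group. In OL enrichment and differential OL enrichment the OL and total RNA libraries of 1 pool were treated as independent, although they share animals.

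**Figure D2:**
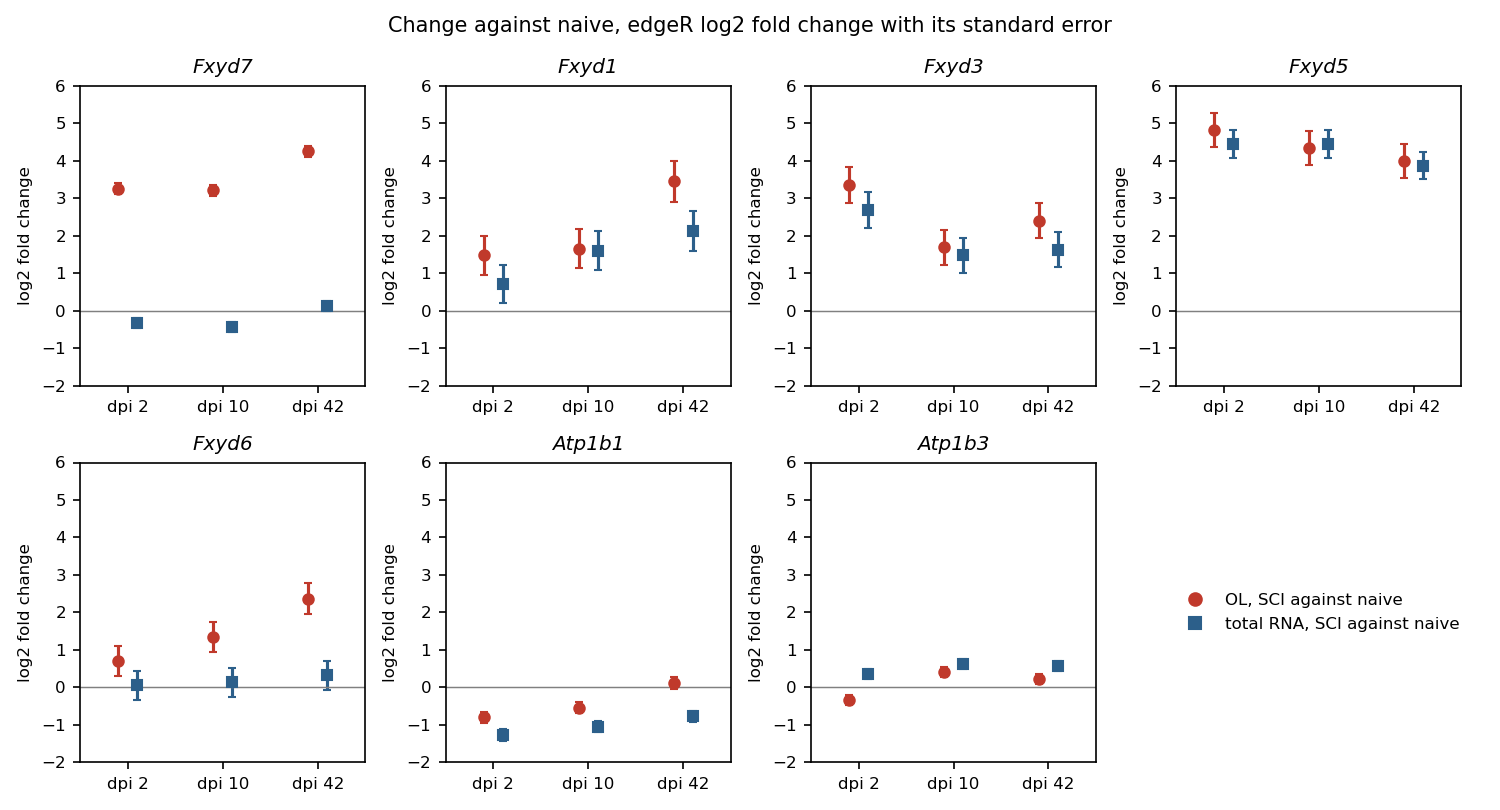
Log2 fold change against naive (edgeR estimate, points, with its SE, bars) of the 7 genes at dpi 2, 10 and 42 in OL RNA (red circles) and total RNA (blue squares). Fxyd7 lies above 3.2 in OL RNA and within 0.5 of 0 in total RNA, Fxyd5 lies near 4 or above in both, and Atp1b1 lies below 0 in total RNA throughout.

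Fxyd7 encodes a FXYD protein described mainly in brain, where it binds the pump and lowers its affinity for external potassium. In OL RNA it stood at 5.88, 6.18 and 6.43 CPM in the naive libraries, at 63.0, 69.0 and 45.1 CPM at dpi 2, at 54.3, 57.3 and 60.6 CPM at dpi 10 and at 120, 106 and 128 CPM at dpi 42. All 9 libraries after SCI were above the 3 naive ones, and the dpi 42 libraries were above those of dpi 2 and dpi 10. These values correspond to a log2 difference from naive of 3.26 (SE 0.15), 3.22 (SE 0.15) and 4.26 (SE 0.15), or 9.57-fold, 9.31-fold and 19.1-fold. They are the values on which the gene was chosen. An offset fitted to gene length and GC content lowered them to 2.22, 2.63 and 3.17. The cause was not tested. The exons of Fxyd7 are the shortest of the set (693 bases, 58.9% GC).

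Total RNA of Fxyd7 was 67.6, 70.8 and 77.0 CPM in naive cord, 51.7, 56.0 and 63.3 CPM at dpi 2, 56.1, 51.2 and 52.3 CPM at dpi 10 and 91.4, 75.5 and 69.2 CPM at dpi 42. The libraries of dpi 2 and dpi 10 lay below all naive ones, and those of dpi 42 overlapped them. The log2 change was -0.33 (SE 0.13, q = 0.052) at dpi 2, -0.43 (SE 0.13, q = 0.015) at dpi 10 and 0.13 (SE 0.13, q = 0.52) at dpi 42. The dpi 2 change stood near the threshold and was called lower in 6 of 35 alternatives. With 1 library left out its q was 0.034 to 0.32. The dpi 10 call was lost, at -0.31, without any 1 of 11 OL libraries (all but dpi 2 library 3). OL libraries are outside the groups compared here. The call was also lost without total naive library 3 (-0.38) or total dpi 10 library 2 (-0.40) and with library sizes alone (-0.25). With the length and GC offset the changes were -1.01 (q = 2.2e-05) at dpi 2, -0.97 (q = 4.2e-05) at dpi 10 and -0.52 (q = 0.017) at dpi 42, the last in the opposite direction.

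The log2 difference of Fxyd7 between OL and total RNA was -3.54 (SE 0.15) in naive cord, which is 11.6-fold lower in OL RNA, then 0.05 (SE 0.13) at dpi 2, 0.11 (SE 0.13) at dpi 10 and 0.58 (SE 0.13) at dpi 42. The level in OL RNA thus lay below that of total RNA in naive cord, near it at dpi 2 and dpi 10, and above it at dpi 42. With library sizes alone the last 3 values were -0.53, -0.47 and 0.08, so the side of total RNA at dpi 2 and dpi 10 depends on the scaling, while the naive depletion does not. At dpi 2 it also depended on single libraries (-0.12 to 0.16 with 1 left out). Differential OL enrichment was 3.59, 3.65 and 4.12 (SE 0.20 each).

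Values of other cell types stand beside this as follows. Naive OL library 3, with 708 CPM of Schwann cell markers and 8210 CPM of astrocyte markers, held 6.43 CPM of Fxyd7, beside 5.88 and 6.18 CPM in the other naive libraries. At dpi 42, OL libraries 1 and 2, with high astrocyte markers, held 120 and 106 CPM, and library 3, with 2548 CPM of those markers, held 128 CPM. Without the 5 OL libraries with high astrocyte markers the log2 differences from naive were 3.39, 3.25 and 4.38. Summed neuron markers in OL libraries were 312 to 430 CPM in naive cord and 204 to 396 CPM after SCI. Microglia and macrophage markers rose in OL libraries from 4.48 to 5.84 CPM in naive cord to 57.6 to 197 CPM after SCI, and their part in the Fxyd7 values was not tested.

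Fxyd1 encodes phospholemman, a phosphorylated FXYD regulator known from heart and muscle and also found in glia. Its OL levels were 15.7, 12.4 and 85.8 CPM in naive cord, 62.7, 101 and 156 CPM at dpi 2, 91.8, 162 and 105 CPM at dpi 10, and 598, 478 and 175 CPM at dpi 42. Naive library 3 stood far above the other naive libraries and overlapped dpi 2, and at dpi 42 libraries 1 and 2 stood above library 3. Total RNA was 57.2, 46.2 and 53.4 CPM in naive cord, 71.8, 100 and 88.3 CPM at dpi 2, 155, 160 and 163 CPM at dpi 10 and 202, 243 and 242 CPM at dpi 42. Each group after SCI was above all naive total RNA libraries.

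Fxyd1 rose in OL RNA at dpi 2 (log2 1.49, SE 0.52, q = 0.027), dpi 10 (1.65, SE 0.52, q = 0.030) and dpi 42 (3.46, SE 0.55, q = 6.7e-05). In total RNA it rose at dpi 10 (1.61, SE 0.52, q = 0.021) and dpi 42 (2.13, SE 0.52, q = 0.0052). Its total RNA change at dpi 2 was 0.73 (SE 0.51, q = 0.28). OL enrichment was not called in any condition (-0.46, 0.30, -0.41 and 0.87, SE 0.50 to 0.51). Differential OL enrichment was 0.76, 0.05 and 1.32 (SE 0.71 to 0.72, q = 0.57, 1.0 and 0.30). Leaving out the 5 OL libraries with high astrocyte markers leaves 1 OL library at dpi 42, which is assumed to vary like the others. The OL changes of Fxyd1 were then 2.48, 2.81 and 3.62, all called. Naive OL enrichment was then -1.74 (q = 5.2e-08), that at dpi 10 was -0.65 (q = 0.0022), the total RNA change at dpi 2 was 0.88 (q = 5.6e-05), and differential OL enrichment was 1.60, 1.09 and 1.39, all called. Leaving out naive OL library 3 alone gave the same -1.74 and differential values of 1.98 at dpi 2 and 2.59 at dpi 42. The OL call at dpi 2 was lost without naive OL library 1 (1.05) or 2 (1.00) or dpi 2 OL library 3 (1.04). It was also lost without the 2 libraries with Y-linked counts (1.53, q = 0.051) and with only the groups compared (1.52, q = 0.19). That at dpi 10 was lost without naive OL library 1 (1.28) or 2 (1.23) or dpi 10 OL library 2 (1.38) or 3 (1.73), with only the groups compared (1.65, q = 0.17) and with the length and GC offset (1.38, q = 0.059). The total RNA call at dpi 10 was lost without total naive library 2 (1.52) or 3 (1.62).

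Fxyd6, or phosphohippolin, is a FXYD protein of the nervous system. OL levels were 6.68, 4.99 and 25.6 CPM in naive cord, 15.9, 26.1 and 19.1 CPM at dpi 2, 30.0, 37.9 and 27.1 CPM at dpi 10 and 85.4, 71.2 and 36.0 CPM at dpi 42. As for Fxyd1, naive library 3 and dpi 42 libraries 1 and 2 were the high ones of their groups. Total RNA was 40.3 to 54.3 CPM in naive cord, 45.4 to 55.0 CPM at dpi 2, 49.7 to 55.3 CPM at dpi 10 and 55.6 to 61.3 CPM at dpi 42, and overlapped naive except at dpi 42.

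Fxyd6 was depleted from OL RNA in naive cord (log2 -1.93, SE 0.40, q = 0.00032) and at dpi 2 (-1.28, SE 0.39, q = 0.0095). The difference was -0.72 (SE 0.39, q = 0.12) at dpi 10 and 0.11 (SE 0.38, q = 0.84) at dpi 42. In OL RNA it rose at dpi 10 (1.34, SE 0.40, q = 0.022) and dpi 42 (2.36, SE 0.41, q = 0.00014), with 0.71 (SE 0.40, q = 0.17) at dpi 2. The total RNA changes of 0.05, 0.14 and 0.32 (SE 0.38 each) were not called. Differential OL enrichment was 0.65 (q = 0.52), 1.21 (q = 0.22) and 2.04 (SE 0.55 each), the last with q = 0.026. Without the 5 OL libraries with high astrocyte markers the OL changes were 1.78, 2.29 and 2.60 and differential OL enrichment was 1.58, 2.03 and 2.19, all called. OL enrichment was then -0.83 (q = 0.00032) at dpi 10 and -0.68 (q = 0.014) at dpi 42, and the total RNA change at dpi 42 was 0.42 (q = 0.039). The differential call at dpi 42 was lost without naive OL library 1 (1.58) or 2 (1.50), dpi 42 OL library 1 (1.63) or 2 (1.80), total naive library 3 (1.94), total dpi 42 library 2 (2.06) or 3 (2.07). It was also lost without the 2 libraries with conflicting labels (1.74, q = 0.11). The OL call at dpi 10 was lost without naive OL library 1 (1.05) or 2 (0.97) or dpi 10 OL library 2 (1.20) and with only the groups compared (1.35, q = 0.17). Leaving out naive OL library 3 gave differential OL enrichment of 1.53 (q = 0.0040) at dpi 2 and 2.18 (q = 0.0004) at dpi 10.

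**Figure D3:**
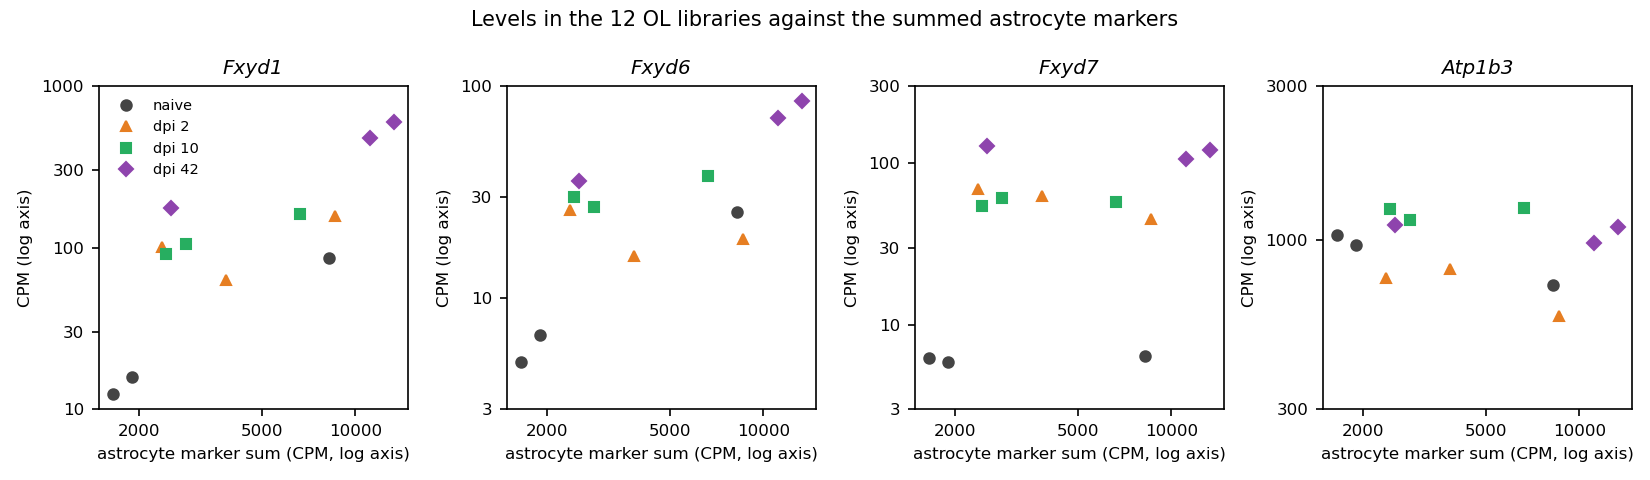
CPM of Fxyd1, Fxyd6, Fxyd7 and Atp1b3 in the 12 OL libraries (y axis, log) against the summed CPM of 6 astrocyte markers in the same library (x axis, log), by condition. Within the naive and dpi 42 groups the libraries with more astrocyte markers have more Fxyd1 and Fxyd6, while Fxyd7 stays at 5.88 to 6.43 CPM in naive cord and 106 to 128 CPM at dpi 42.

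Within groups, the level of Fxyd1 in OL RNA was highest in the library or libraries with the most astrocyte markers in all 4 conditions, and that of Fxyd6 in 3 of 4, the exception being dpi 2, where library 2 (26.1 CPM of Fxyd6, 2387 CPM of astrocyte markers) was highest. The part of astrocyte RNA in these levels was not tested. In the 7 OL libraries with low astrocyte markers, Fxyd1 was 12.4 and 15.7 CPM in naive cord against 62.7 to 175 CPM after SCI, and Fxyd6 was 4.99 and 6.68 CPM against 15.9 to 36.0 CPM. Summed Schwann cell markers in the same libraries were 7.69 and 9.52 CPM in naive cord against 236 to 1561 CPM after SCI, and their part in these levels was not tested either.

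Fxyd5, or dysadherin, is a FXYD protein of epithelia and leukocytes that also affects cell adhesion and chemokine production. In total RNA it stood at 3.80, 3.00 and 6.97 CPM in naive cord, 104, 123 and 77.1 CPM at dpi 2, 82.3, 108 and 111 CPM at dpi 10 and 50.1, 78.5 and 73.5 CPM at dpi 42. In OL RNA it was 0.294, 0.0846 and 0.841 CPM in naive cord (7, 2 and 22 counts), 9.37, 14.3 and 12.0 CPM at dpi 2, 7.46, 6.35 and 11.7 CPM at dpi 10 and 7.73, 5.41 and 7.08 CPM at dpi 42. Groups after SCI did not overlap naive in either kind of RNA, and every OL group lay below its total RNA group.

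The total RNA change of Fxyd5 was log2 4.46 (SE 0.38, q = 1.6e-08), 4.45 (SE 0.38, q = 1.9e-08) and 3.87 (SE 0.37, q = 1.7e-07) at dpi 2, 10 and 42. It also rose in OL RNA, by 4.82 (SE 0.45, q = 5e-08), 4.34 (SE 0.46, q = 9.1e-07) and 4.00 (SE 0.46, q = 1.9e-06). OL RNA held 10.9-fold less in naive cord and 8.52-fold, 11.8-fold and 9.99-fold less at dpi 2, 10 and 42 (log2 -3.45, -3.09, -3.56 and -3.32, SE 0.35 to 0.46, all called). Differential OL enrichment was 0.36, -0.11 and 0.13 (SE 0.54 to 0.67, none called), and its sign changed with single libraries. Summed microglia and macrophage markers (6 of 6 detected, with Itgam and Aif1) were 75.0 to 95.1 CPM in naive total RNA and 913 to 3815 CPM after SCI, and in OL RNA 4.48 to 5.84 CPM and 57.6 to 197 CPM. The highest gene of this list was Lyz2, with up to 2861 CPM in total RNA and 136 CPM in OL RNA. Itgam and Aif1 reached 71.5 and 43.1 CPM in total RNA and 9.52 and 7.15 CPM in OL RNA. The part of these markers in the Fxyd5 values of OL RNA was not tested.

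Fxyd3 encodes a FXYD protein known mainly from epithelia. In OL RNA it was low, at 1.22, 1.73 and 2.75 CPM in naive cord, 12.7, 33.3 and 12.9 CPM at dpi 2, 5.90, 5.78 and 6.89 CPM at dpi 10 and 8.98, 9.33 and 12.1 CPM at dpi 42. Total RNA was 1.21, 0.806 and 1.01 CPM in naive cord, 2.94, 10.7 and 5.92 CPM at dpi 2, 2.73, 2.10 and 3.67 CPM at dpi 10 and 3.48, 1.80 and 4.18 CPM at dpi 42. Every group after SCI was above naive, and dpi 2 pool 2 was the highest library of both kinds.

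The OL change of Fxyd3 was log2 3.36 (SE 0.48, q = 1.1e-05), 1.70 (SE 0.46, q = 0.013) and 2.41 (SE 0.47, q = 0.00045). The total RNA change was 2.68 (SE 0.48, q = 0.00013), 1.48 (SE 0.47, q = 0.018) and 1.64 (SE 0.47, q = 0.015). It was enriched in OL RNA at dpi 2 (1.59, SE 0.44, q = 0.0048), dpi 10 (1.13, SE 0.45, q = 0.039) and dpi 42 (1.68, SE 0.45, q = 0.0033). In naive cord the enrichment was 0.91 (SE 0.47, q = 0.11) and was called in 3 of 36 alternatives. Among these were leaving out the 2 libraries with Y-linked counts (0.91, q = 0.048) and leaving out 1 library (q down to 0.038). Enrichment at dpi 2 was lost without dpi 2 OL library 2 (0.93, q = 0.089). That at dpi 10 was lost without dpi 10 OL library 1 (1.20) or 3 (1.07), total dpi 10 library 1 (1.10) or 2 (0.95), with DESeq2 size factors (1.04) and with library sizes alone (0.55). The OL change at dpi 10 was lost without naive OL library 1 (1.46) or 2 (1.63). The total RNA change at dpi 10 was lost without total naive library 2 (1.35) or 3 (1.49) or total dpi 10 library 3 (1.25). That at dpi 42 was lost without total naive library 2 (1.50) or total dpi 42 library 3 (1.38). From dpi 2 to dpi 10 it fell in OL RNA (-1.66, SE 0.45, q = 0.0095), which was -1.05 (q = 0.068) without the 2 libraries with Y-linked counts. Summed Schwann cell markers in OL RNA at dpi 2 were 236, 719 and 350 CPM, with the highest value in library 2, and were higher at dpi 10 (888 to 1561 CPM), where Fxyd3 was lower. Their part in these values was not tested.

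**Figure D4:**
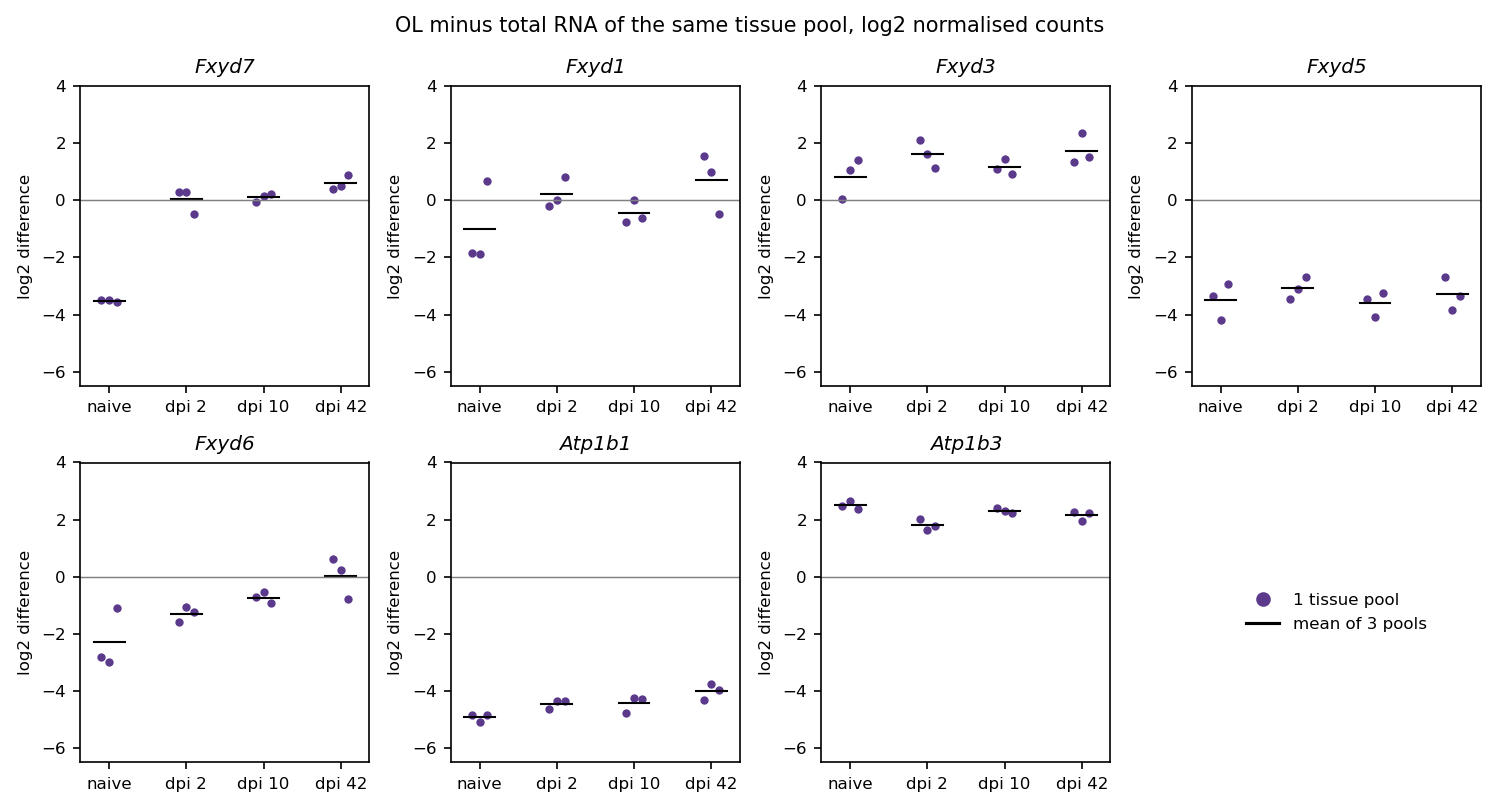
Difference of log2 normalised counts between the OL and total RNA library of each tissue pool (points, 3 pools per condition, mean as a bar) for the 7 genes. Fxyd7 moves from below -3 in naive cord to above 0 at dpi 42, Fxyd6 moves toward 0, Fxyd5 and Atp1b1 stay below -2 and Atp1b3 stays above 1 in every pool.

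Atp1b1 encodes the beta subunit that is most abundant in neurons, and Atp1b3 a beta subunit found in many tissues. Atp1b1 stood at 2076, 2112 and 2121 CPM in naive total RNA, at 945, 697 and 971 CPM at dpi 2, 1087, 951 and 1019 CPM at dpi 10 and 1541, 1098 and 1072 CPM at dpi 42. In OL RNA it was 72.5, 62.0 and 74.0 CPM in naive cord, 38.1, 34.5 and 47.1 CPM at dpi 2, 40.2, 50.5 and 52.8 CPM at dpi 10 and 77.6, 80.7 and 68.2 CPM at dpi 42. All total RNA libraries after SCI were below naive, as were the OL libraries of dpi 2 and dpi 10, and the dpi 42 OL libraries overlapped naive.

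Atp1b1 fell in total RNA by 1.27 (SE 0.15, q = 1.3e-06), 1.05 (SE 0.15, q = 1.8e-05) and 0.77 (SE 0.15, q = 0.00081) on the log2 scale at dpi 2, 10 and 42. In OL RNA the change was -0.80 (SE 0.15, q = 0.00024), -0.54 (SE 0.15, q = 0.016) and 0.12 (SE 0.15, q = 0.61). OL RNA held 30.3-fold less in naive cord and 16.4-fold less at dpi 42 (log2 -4.92 and -4.03), with -4.45 and -4.41 at dpi 2 and 10 (SE 0.17 to 0.18, all called). Differential OL enrichment was 0.47 (q = 0.16), 0.51 (q = 0.17) and 0.88 (SE 0.21 each), the last with q = 0.013. That call was lost without naive OL library 1 (0.76) or 2 (0.65), dpi 42 OL library 1 (0.72) or 2 (0.68) and without the 5 OL libraries with high astrocyte markers (0.67, q = 0.10). The OL call at dpi 10 was lost without naive OL library 1 (-0.51) or dpi 10 OL library 1 (-0.43), with library sizes alone (-0.43) and with only the groups compared (-0.51). Summed neuron markers (6 of 6 detected, with Snap25 and Rbfox3) in total RNA were 7249 to 7752 CPM in naive cord, 2838 to 3971 CPM at dpi 2, 3183 to 3588 CPM at dpi 10 and 3853 to 5774 CPM at dpi 42. Their part in the fall of Atp1b1 was not tested.

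Atp1b3 was the OL-enriched beta subunit. OL levels were 967, 1038 and 729 CPM in naive cord, 813, 764 and 584 CPM at dpi 2, 1248, 1257 and 1150 CPM at dpi 10 and 1099.7, 980.2 and 1113.5 CPM at dpi 42. Total RNA was 172.5, 164 and 142 CPM in naive cord, 201, 244 and 168 CPM at dpi 2, 234, 258 and 244 CPM at dpi 10 and 227, 251 and 236 CPM at dpi 42. Every OL library was above every total RNA library. The enrichment was log2 2.51, 1.82, 2.31 and 2.16 in naive cord and at dpi 2, 10 and 42 (SE 0.14 to 0.15, all called), or 5.71-fold, 3.52-fold, 4.97-fold and 4.47-fold.

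Atp1b3 rose in total RNA at dpi 2 (0.36, SE 0.14, q = 0.049), dpi 10 (0.62, SE 0.14, q = 0.0016) and dpi 42 (0.58, SE 0.14, q = 0.0047). In OL RNA the change was -0.34 (SE 0.14, q = 0.061), 0.42 (SE 0.14, q = 0.041) and 0.22 (SE 0.14, q = 0.24). The OL change at dpi 2 stood near the threshold and was called lower in 14 of 35 alternatives. Among these were leaving out naive OL library 3 (-0.54, q = 0.0038), dpi 2 OL library 1 (-0.51) or 2 (-0.44), or any 1 of the 6 OL libraries of dpi 10 and dpi 42 (-0.40 each). It was also called without total dpi 2 library 2 or 3 (-0.34 each), without the 5 OL libraries with high astrocyte markers (-0.41, q = 0.016) and with the length and GC offset (-0.67, q = 0.00049). The OL change at dpi 42 was called with library sizes alone (0.37, q = 0.027). Differential OL enrichment was -0.70 (SE 0.20, q = 0.021) at dpi 2, and -0.20 and -0.35 (SE 0.20 each, q = 0.67 and 0.32) at dpi 10 and 42. The call at dpi 2 was lost without total naive library 3 (-0.62) or total dpi 2 library 2 (-0.55), without the 2 libraries with Y-linked counts (-0.60, q = 0.072) and with only the groups compared (-0.70, q = 0.098). The total RNA call at dpi 2 stood near the threshold. It was lost without any 1 of 11 total RNA libraries (all but dpi 2 library 3, 0.21 to 0.42), without the 2 libraries with conflicting labels (0.36, q = 0.059), without the 2 libraries with Y-linked counts (0.21) and with the length and GC offset (0.04). The OL call at dpi 10 was lost without naive OL library 1 (0.46) or 3 (0.28), or any 1 of the 3 dpi 10 OL libraries (0.40 to 0.45). It was also lost without dpi 42 OL library 1, total naive library 2 or total dpi 10 library 3 (0.42 each) and without the 5 OL libraries with high astrocyte markers (0.26, q = 0.17).

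Between time points in OL RNA, 4 of the 6 genes were higher at dpi 42 than at dpi 2, against 8.91% of all genes: Fxyd1 (log2 1.97, SE 0.52, q = 0.012), Fxyd6 (1.66, SE 0.40, q = 0.0059), Atp1b1 (0.92, SE 0.15, q = 0.00022) and Atp1b3 (0.56, SE 0.14, q = 0.0075). From dpi 10 to dpi 42, 2 rose (3.28% of all genes), Fxyd1 (1.80, SE 0.52, q = 0.038) and Atp1b1 (0.66, SE 0.15, q = 0.013). Neither call was kept without dpi 10 OL library 1, dpi 42 OL library 1 or dpi 42 OL library 2, or with only the groups compared. That of Fxyd1 was also lost without dpi 10 OL library 2 (2.01) or 3 (1.66), without the 2 libraries with conflicting labels (1.45) and with the length and GC offset (1.58). The rise of Fxyd1 from dpi 2 to dpi 42 was lost without dpi 2 OL library 1 (1.70, q = 0.055), dpi 42 OL library 1 (1.63, q = 0.051) or the 2 libraries with conflicting labels (1.61, q = 0.063), and that of Atp1b3 with only the groups compared (0.54, q = 0.082). Without the 5 OL libraries with high astrocyte markers, 1 of which is dpi 10 library 2 and 2 of which are of dpi 42, the rises from dpi 2 to dpi 42 were 1.15 (q = 0.00081) for Fxyd1 and 0.83 (q = 0.013) for Fxyd6. From dpi 10 to dpi 42 Fxyd1 was then at 0.81 (q = 0.044) and Atp1b1 at 0.53 (q = 0.17), and from dpi 2 to dpi 10 Fxyd6 was called (0.51, q = 0.0498). From dpi 2 to dpi 10, Atp1b3 rose (0.76, SE 0.14, q = 0.00043; 11.7% of all genes) and Fxyd3 was the 1 gene that fell (10.6%), a call also lost without dpi 2 OL library 2 (-0.99, q = 0.13). Fxyd7, as a description, was 1.00 (SE 0.13) higher at dpi 42 than at dpi 2. Mice of different time points also differed in age and in time since tamoxifen. In all these comparisons that cannot be told apart from time after SCI.

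Levels per kilobase of exon allow different genes to be set side by side only roughly. The length used is the union of exons of all annotated transcripts, which can exceed that of the transcript expressed. By this measure the order in naive OL RNA was Atp1b3 (381 ± 67.9 CPM per kb, SD, n = 3), Atp1b1 (22.6 ± 2.12), Fxyd1 (17.37 ± 18.98), Fxyd7 (8.89 ± 0.392), Fxyd6 (3.03 ± 2.79), Fxyd3 (0.392 ± 0.161) and Fxyd5 (0.0970 ± 0.0932). The spreads of Fxyd1 and of its neighbours in that order overlap. At dpi 42 the order was Atp1b3 (446 ± 30.7), Fxyd1 (191 ± 99.7), Fxyd7 (170 ± 15.5), Atp1b1 (24.5 ± 2.12), Fxyd6 (15.6 ± 6.20), Fxyd3 (2.09 ± 0.346) and Fxyd5 (1.61 ± 0.285). Per length, Fxyd1 (2186 bases of exon) and Fxyd7 (693 bases) did not differ beyond their spread at dpi 42. In CPM, not divided by length, Fxyd1 (175 to 598) was above Fxyd7 (106 to 128) there, so their order depends on the length used. In naive total RNA Atp1b1 (683 ± 7.79 CPM per kb) led Fxyd7 (104 ± 6.91), Atp1b3 (66.8 ± 6.49), Fxyd1 (23.9 ± 2.55), Fxyd6 (11.6 ± 1.71), Fxyd5 (1.10 ± 0.501) and Fxyd3 (0.208 ± 0.042). Among the FXYD genes, Fxyd7 was thus the highest per length in naive total RNA, and in naive OL RNA its mean lay below that of Fxyd1, whose libraries ranged widely.

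**Figure D5:**
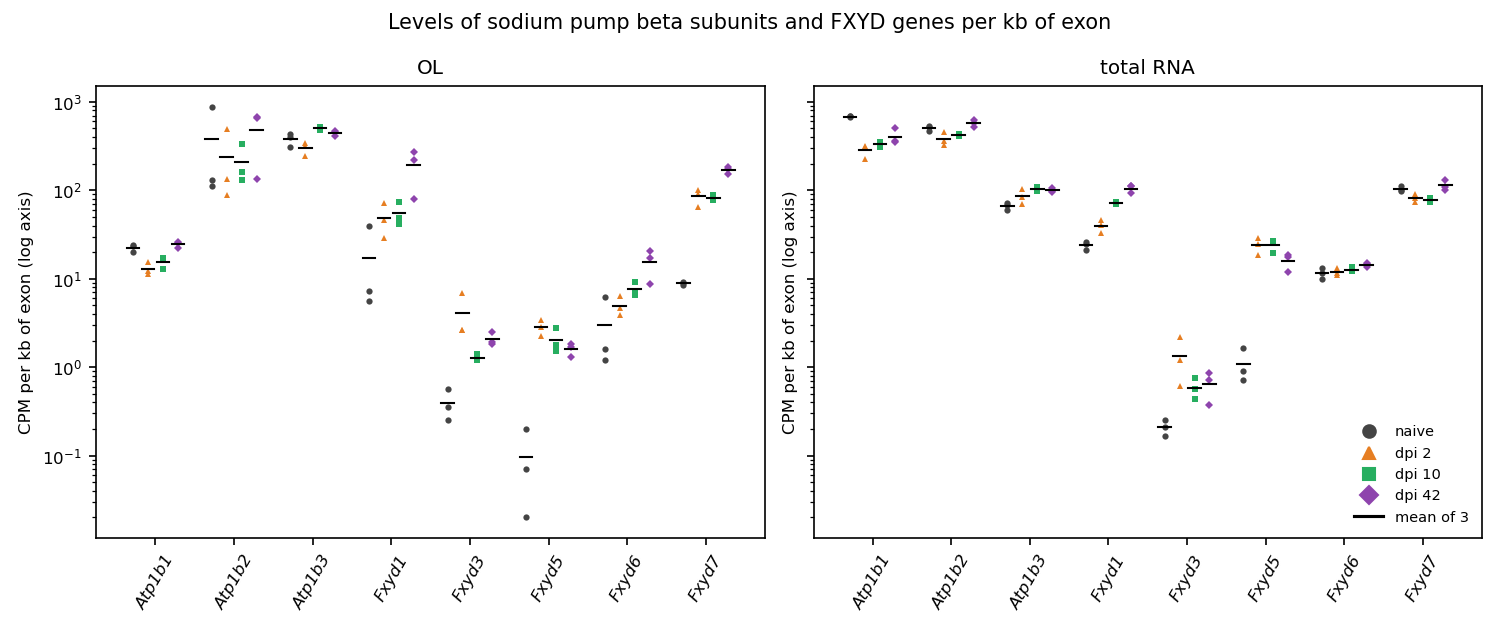
Levels per kb of exon (CPM per kb, log axis) of 3 pump beta subunit genes and the 5 FXYD genes in OL RNA (left) and total RNA (right), with 3 libraries per condition as points and their mean as a bar. In all 4 conditions Atp1b3 has a higher level in OL than in total RNA, and Atp1b1 a far lower one.

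Among other beta subunit and FXYD genes, Atp1b4 had 0 counts and Fxyd4 8 in all 24 libraries, and neither was tested. Atp1b2, a beta subunit gene used by astrocytes, varied widely between OL libraries of 1 group. It was at 461, 540.5 and 3618 CPM in naive OL RNA and at 2652, 2759 and 552 CPM at dpi 42, the high libraries being those with high astrocyte markers. Its log2 changes in OL RNA at dpi 2, dpi 10 and dpi 42 against naive, of -0.66, -0.85 and 0.37 (SE 0.66 each), were not called. Fxyd2, the FXYD gene of kidney, rose in OL RNA at dpi 42 (4.32, SE 1.45, q = 0.026), from a mean of 0.0984 to 2.00 CPM. Its naive OL level rests on 0 to 4 counts per library, so the size of this rise is uncertain. In total RNA Fxyd2 also rose at dpi 42 (3.41, SE 1.15, q = 0.038), from a mean of 1.35 to 14.4 CPM, and at dpi 2 (3.60, SE 1.16, q = 0.018), where its libraries overlapped naive.

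Among 11 sodium and potassium carriers, 7 fell and 0 rose in OL RNA at dpi 2, against 20% and 18.4% of all genes. At dpi 10, 3 fell and 1 rose (8.59% and 9.62% of all genes), and at dpi 42, 6 fell and 1 rose (16.9% and 16.2%). In total RNA 7 fell and 1 rose at dpi 2 (20.8% and 16.4% of all genes), and 4 fell and 1 rose at dpi 10 (18.2% and 13.9%) and again at dpi 42 (12.1% and 10.4%). Kcnj10, the inward rectifier potassium channel of glia, fell in OL RNA at all time points (-0.68, -0.49 and -0.70, SE 0.12 each). The cotransporter gene Slc12a2 (NKCC1), enriched in OL RNA by 2.68 (SE 0.16) in naive cord, fell at dpi 2 (-0.97, SE 0.15, q = 3.0e-05) and dpi 42 (-0.74, SE 0.15, q = 0.00074). Slc12a7, a potassium chloride cotransporter gene, was the 1 that rose in OL RNA, at dpi 10 (1.63, SE 0.48, q = 0.020) and dpi 42 (1.95, SE 0.48, q = 0.0033). Its OL levels were low, at 0.761 to 1.95 CPM in naive cord (18 to 51 counts) and 2.43 to 6.54 CPM at dpi 42. Those at dpi 10 (1.13 to 5.44 CPM) overlapped naive. The mean of Slc12a7 in total RNA was higher, at 4.71 CPM in naive cord and 15.2, 20.9 and 13.1 CPM at dpi 2, 10 and 42. The median OL change of the 11 carriers was -1.18, -0.49 and -0.70.

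Of 7 pump regulators and partners, the kinase gene Sik1 rose in OL RNA at all 3 time points (1.11, 1.14 and 0.92, SE 0.27 each). Its dpi 42 OL libraries (7.65 to 16.2 CPM) overlapped the naive ones (6.31 to 7.90 CPM). Hepacam, a membrane partner enriched in OL RNA by 1.81 (SE 0.09) in naive cord, fell at all 3 (-0.77, -0.36 and -0.31, SE 0.09 each). Nedd4l, a ubiquitin ligase gene, fell at dpi 2 (-0.63, SE 0.14, q = 0.0011). The kinase genes Sgk1 and Sgk3, the extracellular matrix gene Agrn and Mlc1 were not called in OL RNA against naive.

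Among the genes within 50 kb of the chromosome 7 cluster, Lgi4, which overlaps Fxyd3 and is known from Schwann cells, rose in OL RNA at dpi 2 (1.97, SE 0.28, q = 9.6e-06) and dpi 42 (1.42, SE 0.28, q = 0.00044) and was 0.72 (SE 0.27, q = 0.073) at dpi 10. Hpn and Fam187b were not called in any change against naive.

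By Pearson correlation of log2 CPM among 13676 other genes with a mean of at least 1 CPM, the genes most like Fxyd7 over the 24 libraries were Plvap (r = 0.90), Ip6k3 (0.88), Rxrg (0.85), Cacnb3 (0.85) and Lrfn4 (0.83). Over the 12 OL libraries they were Slc8b1 (0.98), Ctsz (0.97), Rapsn (0.97), Gpx4 (0.97) and Cd72 (0.96). The most alike were Id3 for Fxyd1 (0.90), Scand1 for Fxyd3 (0.93), Ppp1r18 for Fxyd5 (0.98), Cetn4 for Fxyd6 (0.94), Prune2 for Atp1b1 (0.99) and Rhog for Atp1b3 (0.99). These values describe 24 or 12 libraries that share pools, conditions and scaling, and the 2 lists of Fxyd7 have no gene in common.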

How the data were processed

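Polysome-associated RNA of OL-Ribotag spinal cords was sequenced as OL libraries (HA precipitate) and total RNA libraries (input), 3 pools of 2 mice for each of 8 groups. The authors deposited read counts per Ensembl gene, not normalised, and the sources name FastQC 0.10.1, STAR, HTSeq 0.10.0 and the mm10 (GRCm38.p6) genome. The strand setting of counting is not given in the sources used here. All 24 columns were used.

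Groups followed the sample descriptions and column names. Symbols and positions were taken from GENCODE M21 (21939 of 21965 identifiers matched) and promoter stretches from RefSeq GRCm38.p6. Genes with at least 10 counts in all were tested with edgeR 4.0.16 (R 4.3.3): TMM scaling, 1 mean per group over all 24 libraries, the quasi-likelihood F test (2-sided) and Benjamini-Hochberg adjustment over 17167 genes. Plotted and listed levels are TMM-scaled CPM, and log2 CPM for likeness used a prior count of 2. DESeq2 1.42.0, DESeq2 size factors, library sizes alone, other filters, only the groups compared, a length and GC offset, replicate blocks and leaving out single libraries were alternatives. Leaving out the 5 OL libraries with astrocyte markers above 5000 CPM, or the 2 libraries with Y-linked counts, was added after seeing the data. The tests were tried on simulated counts.

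The members, gene lists and tests were chosen with earlier results of these data known, so a call here is not independent support. Named genes are the 7 members, the listed pump genes, carriers and regulators, genes within 50 kb of the chromosome 7 cluster, the genes next to Fxyd7 in the order of OL risers, and the genes most correlated with each member. Some of these genes are not reported here. OL and total RNA of 1 pool come from the same animals. Deviations from group means correlated at 0.041 to 0.137 between libraries of the same pool in naive cord, 0.088 to 0.108 at dpi 2, 0.024 to 0.063 at dpi 10 and -0.011 to 0.020 at dpi 42. Between OL and total RNA libraries of different pools the values were -0.105 to 0.050, -0.078 to -0.018, -0.037 to 0.012 and -0.028 to 0.025 in the same order. At 25840127 to 32987841 counts per library, counting error weighs most on the members with few counts. Among these were Fxyd5 in naive OL RNA (2 to 22 counts per library) and Fxyd3 in naive total RNA (25 to 37) and naive OL RNA (29 to 72). Fxyd3 in total RNA at dpi 10 (73 to 128) and dpi 42 (63 to 147) and Fxyd7 in naive OL RNA (140 to 168) were others.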

Additional observations from a re-analysis of the deposited data

Results flagged for a closer look

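The change after SCI differed between OL and total RNA, by the interaction term of the edgeR quasi-likelihood fit, for 3 of the 6 genes other than Fxyd7. At dpi 42, Fxyd6 had a differential OL enrichment of 2.04 (adjusted p = 0.026), with a change of 2.36 in OL RNA and 0.32 in total RNA. At dpi 42, Atp1b1 had 0.88 (adjusted p = 0.013), with 0.12 in OL RNA and -0.77 in total RNA. At dpi 2, Atp1b3 had -0.70 (adjusted p = 0.021), with -0.34 in OL RNA and 0.36 in total RNA. Each of the 3 calls was lost without at least 2 of the single libraries left out in turn.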

How the results depend on the processing

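Over 112 results, 3969 alternative values were computed: 3675 kept direction and side of the threshold (or stayed within the limit for a value or count), 112 fell below the threshold, 56 passed it, 56 changed sign (changes of the untested Fxyd7 values within the spread between replicates aside) and 70 moved. The number of genes called, with 1 library left out at a time, was 1 to 6 for the OL change at dpi 10 (6 with all libraries), 3 to 6 for the total RNA change at dpi 10 (6), 0 to 3, 0 to 1 and 0 to 4 for differential OL enrichment at dpi 2, 10 and 42 (1, 0 and 2), 1 to 3 for dpi 10 against dpi 2 in OL RNA (2) and 0 to 3 for dpi 42 against dpi 10 in OL RNA (2). With only the groups compared these counts were 3 for the OL change at dpi 10, 0 and 1 for differential OL enrichment at dpi 2 and dpi 42, and 0 for dpi 42 against dpi 10. Without the 5 OL libraries with high astrocyte markers they were 3 and 2 for differential OL enrichment at dpi 2 and dpi 10 and 1 for dpi 42 against dpi 10. Without the 2 libraries with Y-linked counts they were 0 for differential OL enrichment at dpi 2 and 1 for dpi 10 against dpi 2, without the 2 libraries with conflicting labels 1 for differential OL enrichment at dpi 42 and 1 for dpi 42 against dpi 10, and with the length and GC offset 1 for dpi 42 against dpi 10. The cause was not tested for any of these.

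Signs changed as follows. With library sizes alone, OL enrichment was -0.26 for Fxyd1 at dpi 2, -0.38 for Fxyd6 at dpi 42 and -0.47 for Fxyd7 at dpi 10, and differential OL enrichment of Fxyd1 at dpi 10 was -0.068. With the length and GC offset, the dpi 42 change was -0.072 for Atp1b1 and -0.049 for Atp1b3 in OL RNA and -0.52 for Fxyd7 in total RNA. Without the 5 OL libraries, OL enrichment was -0.14 at dpi 2 and -0.34 at dpi 42 for Fxyd1 and -0.68 at dpi 42 for Fxyd6, and differential OL enrichment of Fxyd5 at dpi 10 was 1.06. Without the conflicting labels, Fxyd6 OL enrichment at dpi 42 was -0.19 and Fxyd5 differential OL enrichment at dpi 42 was -0.16. Without the Y-linked counts, the total RNA change of Fxyd6 at dpi 2 was -0.033.

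With 1 library left out, sign changes occurred in the OL change of Atp1b1 at dpi 42 (-0.018 to 0.12), in Fxyd1 for OL enrichment in naive cord (-1.74 to 0.12) and at dpi 2 (-0.14 to 0.51), differential OL enrichment at dpi 10 (-0.49 to 1.36) and dpi 10 against dpi 2 in OL RNA (-0.045 to 0.61), in Fxyd3 for differential OL enrichment at dpi 2 (-0.14 to 1.24) and dpi 10 (-0.14 to 0.46), in Fxyd5 for the same at dpi 2 (-0.32 to 1.26), dpi 10 (-0.70 to 0.89) and dpi 42 (-0.49 to 1.09), in Fxyd6 for OL enrichment at dpi 42 (-0.14 to 0.38) and total RNA at dpi 2 (-0.052 to 0.20), and in Fxyd7 for OL enrichment at dpi 2 (-0.12 to 0.16) and dpi 10 against dpi 2 in OL RNA (-0.14 to 0.14), both by less than the spread between replicates.

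With the replicate block by tissue pool and the length and GC offset, OL enrichment of Fxyd6 was called at dpi 10 (-0.80, adjusted p = 0.047) and was -0.025 at dpi 42, and Fxyd5 differential OL enrichment at dpi 10 was 0.00077. The replicate block by number called the OL change of Atp1b3 at dpi 2 (-0.34, adjusted p = 0.031), and neither block without the offset changed any other call of the 7 genes.

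Library sizes alone moved the share of calls that were higher from 45.0 to 46.7% to 18.5 to 24.4% in OL enrichment, from 47.9 to 52.8% to 61.6 to 70.8% in OL changes and from 43.3 to 46.2% to 62.5 to 65.4% in total RNA changes, and the median OL enrichment of all genes from between -0.27 and -0.18 to between -0.80 and -0.69. Fxyd5 in naive OL RNA rests on 2 to 22 counts per library.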
